A study of Caenorhabditis elegans with 16 samples.

Results

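The pulldown of alg-1 mRNA was compared with the pulldowns of lin-41 and gld-1 mRNA to find the miRNAs that were high with alg-1 and not with either of the other transcripts. The members were the 2 libraries of the alg-1 pulldown and, as the transcripts they were set against, the 2 libraries of the lin-41 pulldown and the 2 of the gld-1 pulldown, 6 of the 16 small RNA libraries in the series, chosen by sample title. All 6 came from young adult Caenorhabditis elegans of the wild-type strain N2, carried no transgene or edit, and were crosslinked with ultraviolet light before lysis. Biotinylated DNA probes complementary to the endogenous transcript then retrieved it with what was bound to it, a method called vIPR. The other 10 libraries served for the shared estimate of spread and for levels elsewhere: a no-target control in which probes against gfp were used in N2 worms without gfp (n = 3), gfp-probe pulldowns of gfp::lin-41 (n = 1) and of a gld-1::gfp transgene in strain BS1080 (n = 2), and gld-1 pulldowns from CRISPR strains with the miR-84 site of gld-1 destroyed (seed destruction, n = 2) or turned into a let-7 site (changed specificity, n = 2).

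A miRNA guides an Argonaute protein to mRNAs that pair with it, mostly through the seed near its 5′ end, and the bound mRNA is then repressed or destabilised. In worms the main Argonaute of the miRNA pathway is ALG-1, so the alg-1 transcript encodes a part of the machinery that would bind it. lin-41 encodes a TRIM-NHL protein and is the classic target of let-7, the miRNA that times the passage from larva to adult, and gld-1 encodes a translational repressor of the germline. The probes capture RNA from whole worms, so a pulldown holds miRNAs of every tissue, and fewer cells of a type cannot be told apart from fewer copies per cell. The targeted mRNAs themselves are not measured in small RNA libraries, so the labels could not be checked on them here.

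The deposited values are read counts per mature miRNA. They summed to 160645 and 126242 reads in the alg-1 libraries, against 1055420 and 163422 in the lin-41 libraries and 181172 and 408243 in the gld-1 libraries, within a range of 12474 to 2081849 over all 16. A few miRNAs filled most of each library. miR-71-5p, let-7-5p and miR-84-5p together held 66.9% and 76.8% of the alg-1 reads, against 84.5% and 68.1% of the lin-41 reads and 44.6% and 49.1% of the gld-1 reads. Counts were therefore scaled with trimmed mean of M values (TMM) factors, which ranged from 0.155 to 5.32 over the libraries, and levels are given as normalised CPM, the reads of a miRNA relative to the effective (TMM-scaled) library size, on which scale a dominant miRNA can exceed the nominal total. Of 434 mature miRNAs, 112 had 10 or more reads in at least 2 libraries and were tested with the edgeR quasi-likelihood test. The paper describes 2 independent pulldown experiments for each target in its miRNA figure. The labels do not say that replicates came from separate cultures, so the p-values measure the spread between these pulldowns and libraries, which may be technical.

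**Figure D1:**
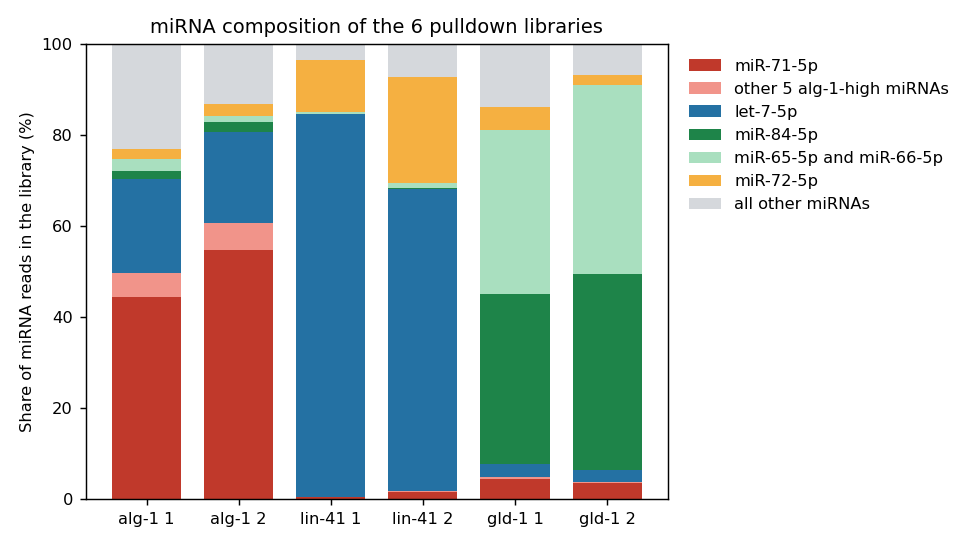
Stacked bars give the share of miRNA reads in percent (vertical axis, from 0) for the 2 alg-1, 2 lin-41 and 2 gld-1 libraries. miR-71-5p led both alg-1 libraries with 44.4% and 54.7%, let-7-5p led both lin-41 libraries, and miR-84-5p led both gld-1 libraries.

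Each pulldown was led by a different miRNA. miR-71-5p, which is known in worms for promoting long life and survival of starvation, had 71322 and 69089 reads in the alg-1 libraries, against 4598 and 2645 in the lin-41 libraries and 8034 and 14518 in the gld-1 libraries. In shares this was 44.4% and 54.7% with alg-1, against 0.436% and 1.62% with lin-41 and 4.43% and 3.56% with gld-1. let-7-5p led the lin-41 libraries with 84.0% and 66.2%, and miR-84-5p, its family member, led the gld-1 libraries with 37.3% and 43.1%. Within a library, the log2 ratio of miR-71-5p to let-7-5p and miR-84-5p summed (1 read added to each side), which no scaling between libraries can alter, was 0.98 and 1.31 with alg-1, against -7.59 and -5.36 with lin-41 and -3.18 and -3.68 with gld-1. The mean difference between alg-1 and the 4 others was 6.10. Because the 3 miRNAs were chosen as those that lead the 3 pulldowns, the order of the libraries in this ratio was fixed by that choice, and it is given as a description.

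Of the 112 miRNAs, 8 were higher with alg-1 than with lin-41 (7.14%) and 11 were lower (9.82%) at an adjusted p under 0.05. Against gld-1, 11 were higher with alg-1 (9.82%) and 9 were lower (8.04%). The requirement of a call in the same direction against each transcript left 6 miRNAs higher with alg-1 (5.36%), namely miR-71-5p, miR-40-3p, miR-50-5p, miR-1829c-5p, miR-795-5p and miR-786-3p, and 1 lower (0.893%), miR-246-3p. Both comparisons use the same alg-1 libraries and are not independent of each other. A further 2, let-7-5p and miR-84-5p, passed both in opposite directions, 10 differed against lin-41 alone, 11 against gld-1 alone, and 82 in neither. The median log2 fold change of all 112 was 0.24 against lin-41 and 0.01 against gld-1. Scaling by library totals alone moved these medians to 2.12 and 0.74 and gave 40 higher and 6 lower calls against lin-41, so the split between higher and lower depends on the scaling, whereas the 6 miRNAs were called higher against both transcripts under each of the 5 scalings tried.

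**Figure D2:**
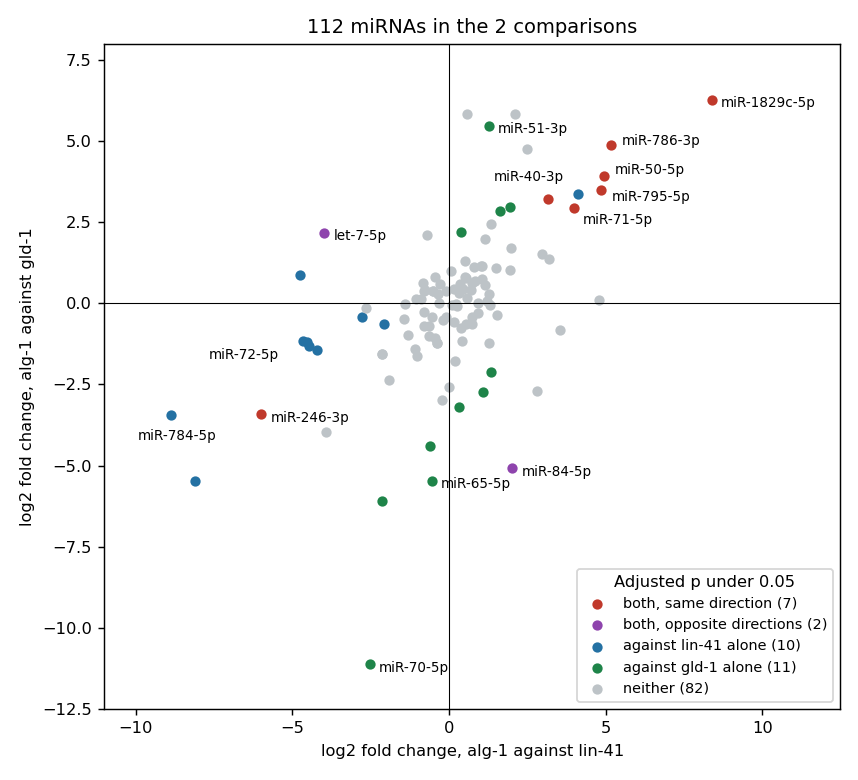
Each point is 1 of the 112 miRNAs, with its log2 fold change in alg-1 against lin-41 on the horizontal axis and in alg-1 against gld-1 on the vertical axis, coloured by the comparisons in which the edgeR adjusted p was under 0.05. The 6 miRNAs called higher in both lie in the upper right and miR-246-3p alone is called lower in both, while let-7-5p and miR-84-5p lie in opposite corners, and the axes share the alg-1 libraries.

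miR-71-5p was the most abundant of the 6. Its level was 258732 and 425262 normalised CPM with alg-1, against 16985 and 25790 with lin-41 and 34819 and 54533 with gld-1, so the groups did not overlap. The log2 fold change was 3.999 ± 0.66 (SE) against lin-41 (edgeR adjusted p = 4.95e-05) and 2.94 ± 0.63 against gld-1 (edgeR adjusted p = 0.000773). The call against gld-1 was lost without alg-1 replicate 2 (log2 fold change 2.44, edgeR adjusted p = 0.0522, with 1.23e-08 as the lowest over all alternatives). Its gene, mir-71, lies on chromosome I at 9379927 to 9380020 (WBcel235, minus strand), in an intron of ppfr-1 in the same direction.

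miR-40-3p and miR-50-5p were the next most abundant. miR-40-3p, of the miR-35 family that is needed in the embryo, had 4884 and 4244 reads with alg-1, against 471 and 325 with lin-41 and 484 and 698 with gld-1. Scaled, it stood at 17718 and 26123 normalised CPM with alg-1, against 1740 and 3169 with lin-41 and 2098 and 2622 with gld-1, and no alg-1 library overlapped the others. The log2 fold changes were 3.16 ± 0.64 against lin-41 and 3.22 ± 0.65 against gld-1 (edgeR adjusted p = 0.000546 and 0.000472). Without lin-41 replicate 1 the call against lin-41 was lost (log2 fold change 2.23, edgeR adjusted p = 0.125, with 4.72e-08 as the lowest over all alternatives). The gene lies on chromosome II at 11538184 to 11538275, between mir-39 and mir-41 in the cluster that runs from mir-35 to mir-41.

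miR-50-5p had 2408 and 2424 reads with alg-1, against 107 and 38 with lin-41 and 200 and 185 with gld-1. Its normalised CPM of 8735 and 14920 with alg-1 lay far above 395 and 371 with lin-41 and 867 and 695 with gld-1. The log2 fold change was 4.95 ± 0.68 against lin-41 and 3.92 ± 0.65 against gld-1 (edgeR adjusted p = 4.2e-06 and 3.52e-05). mir-50 lies on chromosome I at 1738635 to 1738733, in an intron of tln-1, the gene of the worm talin, a protein that ties cell adhesions to the cytoskeleton.

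miR-1829c-5p showed the largest difference of the 6. It had 530 and 548 reads with alg-1, against 3 and 0 with lin-41 and 14 and 2 with gld-1. From the summed reads scaled by effective library size it was 306.1-fold higher with alg-1 than with lin-41, with an exact 95% counting interval of 104.5 to 1487 that covers counting error only. The fitted log2 fold change was 8.403 ± 1.15 against lin-41 and 6.29 ± 0.99 against gld-1 (edgeR adjusted p = 4.2e-06 and 1.86e-05), of which the first rests on those 3 reads. With 1 library left out the log2 fold change against lin-41 ranged from 7.79 (without alg-1 replicate 2) to 12.4 (without lin-41 replicate 1). The value of 12.4 was fitted against a lin-41 library with 0 reads, so its size is not defined. Against gld-1 the log2 fold change ranged from 5.44 (without gld-1 replicate 2) to 8.39 (without gld-1 replicate 1). The related miR-1829a-5p had 4 and 0 reads with alg-1, against 4 and 0 with lin-41 and 3 and 3 with gld-1, and passed in neither comparison. miR-1829b-5p had no read in the alg-1 libraries. Reads of near-identical miRNAs can be split uncertainly by the counting. mir-1829c lies on chromosome X at 15236362 to 15236423, in an intron of piki-1, a phosphoinositide 3-kinase gene.

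The last pair was less abundant. miR-795-5p had 372 and 239 reads with alg-1, against 19 and 2 with lin-41 and 18 and 45 with gld-1. Its log2 fold change was 4.85 ± 1.00 against lin-41 and 3.51 ± 0.92 against gld-1 (edgeR adjusted p = 0.000566 and 0.00573). Without gld-1 replicate 1 the call against gld-1 was lost (log2 fold change 3.06, edgeR adjusted p = 0.0941, with 2.68e-08 as the lowest over all alternatives). mir-795 lies on chromosome I at 12594569 to 12594657, 1033 bases from mir-794.

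miR-786-3p, which acts in the worm intestine to set the defecation rhythm, had 248 and 150 reads with alg-1, against 6 and 3 with lin-41 and 9 and 6 with gld-1. In normalised CPM the alg-1 libraries were almost equal, at 900 and 923, against 22.2 and 29.3 with lin-41 and 39.01 and 22.5 with gld-1. The log2 fold changes were 5.17 ± 1.03 and 4.88 ± 0.98 against lin-41 and gld-1 (edgeR adjusted p = 0.000499 and 0.000472). mir-786 lies on chromosome X at 7882751 to 7882840, 33 bases from mir-240. No miRNA gene lies inside alg-1, lin-41 or gld-1 in this annotation.

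**Figure D3:**
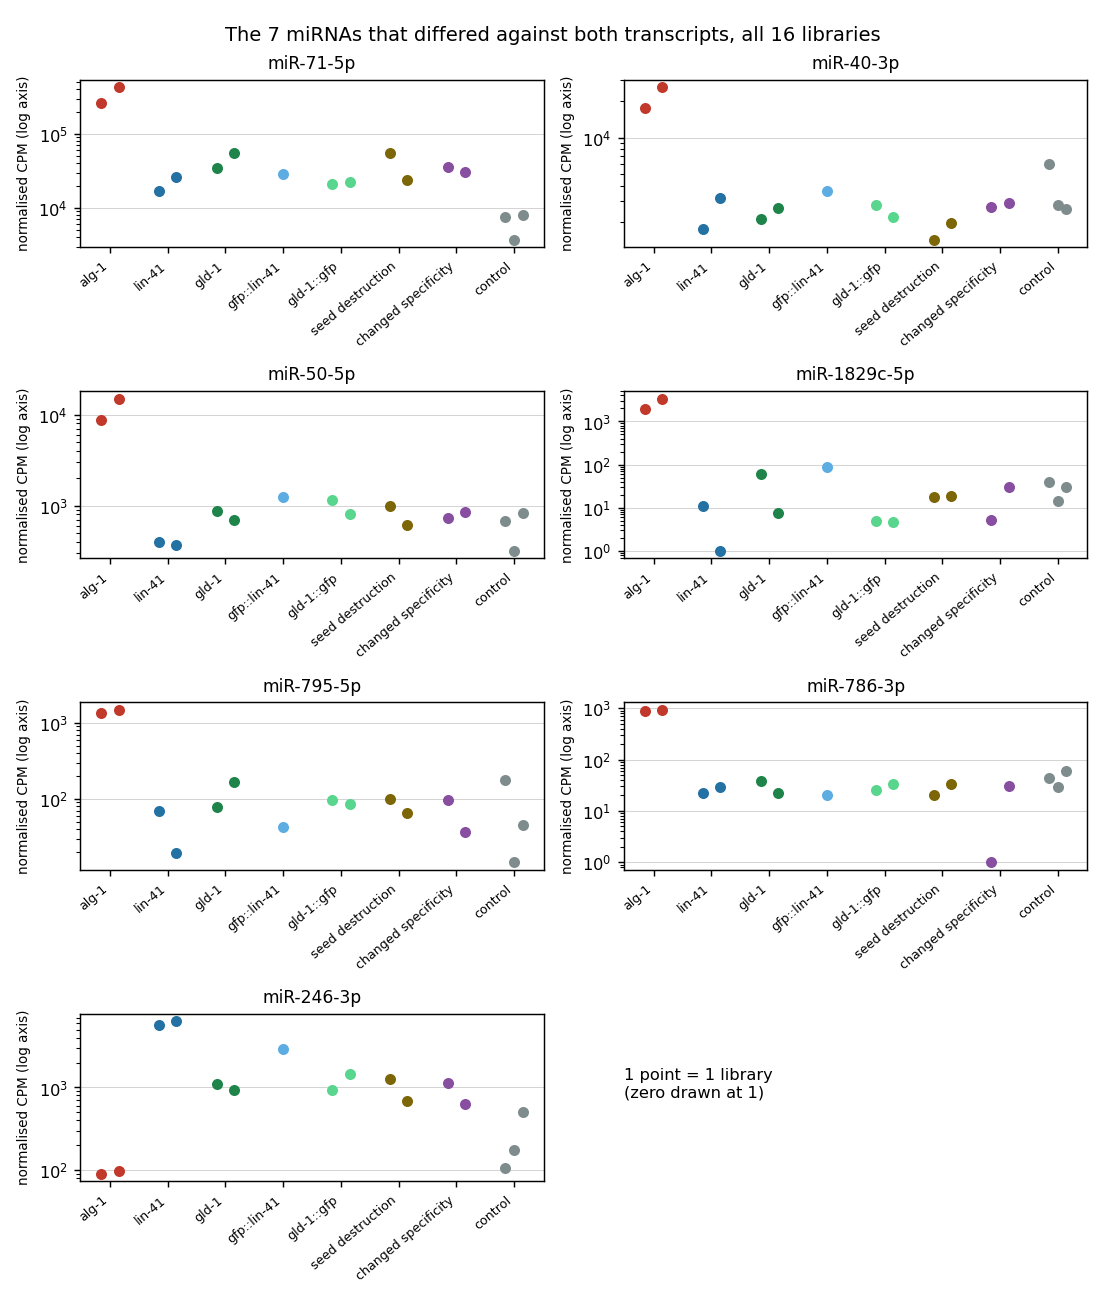
Each point is the normalised CPM (log axis, a level of zero drawn at 1) of 1 library, in panels for the 6 miRNAs higher with alg-1 than with both other transcripts and for miR-246-3p, with the groups from alg-1 on the left to the control on the right. In the first 6 panels both alg-1 libraries lie above all 14 others, and for miR-246-3p both lie under all 14.

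The alg-1 level of these miRNAs was also set against all other libraries. Both alg-1 libraries lay above all 4 lin-41 and gld-1 libraries for 22 of the 112 miRNAs (19.6%), and above all 14 other libraries of the series for 11 (9.82%), among them all 6. The 6 had been picked for being high against 4 of these 14 libraries, so this is a description and no further test. The closest library of the 10 outside the comparison was seed destruction replicate 1 for miR-71-5p (56015 normalised CPM), control replicate 1 for miR-40-3p (5993) and miR-795-5p (178), gfp::lin-41 replicate 1 for miR-50-5p (1248) and miR-1829c-5p (90.4), and control replicate 3 for miR-786-3p (60.4). The 11 also held miR-241-5p, miR-51-3p, miR-56-3p and miR-75-5p, which passed the test against 1 transcript, and miR-230-5p, which passed against neither and was named after its values were seen.

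The no-target control gave the level of these miRNAs without a targeted transcript and without the alg-1 probes, as it was made with gfp probes. Transcript and probe set changed together in each comparison of alg-1, so binding to the transcript and capture by the probes cannot be told apart. All 6 were higher with alg-1 than in the control, in a comparison that called 18 of 112 miRNAs higher (16.1%), with log2 fold changes between 2.53 for miR-40-3p and 6.50 for miR-1829c-5p. For 5 of them neither the lin-41 pulldown nor the gld-1 pulldown passed against the control. miR-50-5p, for example, had a log2 fold change of -0.65 with lin-41 and 0.37 with gld-1 against the control (edgeR adjusted p = 0.462 and 0.666). miR-71-5p was the exception. It was higher than in the control also with lin-41 (log2 fold change 1.72, edgeR adjusted p = 0.0207) and with gld-1 (2.79, edgeR adjusted p = 0.000315), where 15 (13.4%) and 17 (15.2%) of the 112 miRNAs were called higher, so its difference between alg-1 and the other transcripts was one of degree, with 5.72 for alg-1 against the control. These 3 comparisons share the control libraries. The 6 had been picked from the same alg-1, lin-41 and gld-1 libraries, so their levels against the control are a description and no further test.

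miR-246-3p, which in worms has been tied to ageing, was the only miRNA called lower with alg-1 against both. It had 25 and 16 reads with alg-1, against 1550 and 647 with lin-41 and 253 and 248 with gld-1. That is 90.7 and 98.5 normalised CPM with alg-1, against 5726 and 6309 with lin-41 and 1097 and 932 with gld-1, with no overlap. Such a separation, both alg-1 libraries below all 4 lin-41 and gld-1 libraries, was seen for 14 of the 112 miRNAs. For 3, namely miR-1817, miR-246-3p and miR-82-3p, both lay below all 14 other libraries. The log2 fold change of miR-246-3p was -5.99 ± 0.79 against lin-41 and -3.42 ± 0.71 against gld-1 (edgeR adjusted p = 4.2e-06 and 0.000597). Against the control, alg-1 did not pass (log2 fold change -1.39, edgeR adjusted p = 0.137), while lin-41 and gld-1 were higher (4.60 and 2.03, edgeR adjusted p = 2.58e-06 and 0.0136). Both alg-1 libraries lay below the 3 controls, at 106, 176 and 498 normalised CPM. With library totals that leave out miR-71-5p, let-7-5p and miR-84-5p, the call against gld-1 was lost (log2 fold change -1.87, edgeR adjusted p = 0.0578, the highest over all alternatives, of which the lowest was 9.71e-08). mir-246 lies on chromosome IV at 10940134 to 10940230, in no annotated host gene.

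The opposite arms of the precursors were scarce, and of these miR-71-3p alone had enough reads to be tested. It had 13 and 7 reads with alg-1, against 10 and 1 with lin-41 and 6 and 4 with gld-1, and passed in neither comparison (log2 fold change 0.80 and 1.135, edgeR adjusted p = 0.717 and 0.581 against lin-41 and gld-1). The arms miR-40-5p, miR-50-3p, miR-786-5p and miR-795-3p had 0 reads in all 6 libraries. miR-1829c-3p had 2 and 0 reads with alg-1, against 0 and 1 with lin-41 and 0 and 0 with gld-1, and miR-246-5p had 3 and 2 with alg-1, against 4 and 0 with lin-41 and 7 and 2 with gld-1. In all 7 precursors the arm that differed was the abundant arm of the alg-1 libraries.

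Ratios to a close relative, to a neighbouring gene's miRNA or to the other arm gave a description within each library. The 4 numerators had been picked for being high with alg-1 against the same libraries, so the ratios are no further test. For miR-40-3p the relatives were the summed 3p arms of the other members of its cluster, which share its seed, with 856 and 506 reads with alg-1, against 2314 and 711 with lin-41 and 997 and 1224 with gld-1. The log2 ratio was 2.51 and 3.07 with alg-1, against -2.29 and -1.13 with lin-41 and -1.04 and -0.81 with gld-1. miR-40-3p thus outnumbered its relatives in both alg-1 libraries and in none of the 4 others. The log2 ratio of miR-786-3p to miR-240-3p, whose gene is its neighbour, was 2.57 and 3.54 with alg-1, against -1.28 and -0.32 with lin-41 and 0.74 and -0.51 with gld-1, where miR-240-3p had between 4 and 16 reads. That of miR-50-5p to miR-90-3p, of the same family, was 3.50 and 4.53 with alg-1, against 0.33 and -0.04 with lin-41 and 1.13 and 1.54 with gld-1. The mean differences between alg-1 and the other 4 libraries were 4.11, 3.40 and 3.27 on the log2 scale for these pairs, and 2.51 for miR-71-5p to miR-71-3p. In the 10 libraries outside the comparison the highest ratio was 0.47 for miR-40-3p, 1.00 for miR-786-3p and 3.02 for miR-50-5p. For miR-71-5p to miR-71-3p it was 12.2, beside 12.3 and 13.1 in the alg-1 libraries, so that ratio was nearly as high outside the alg-1 pulldown.

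**Figure D4:**
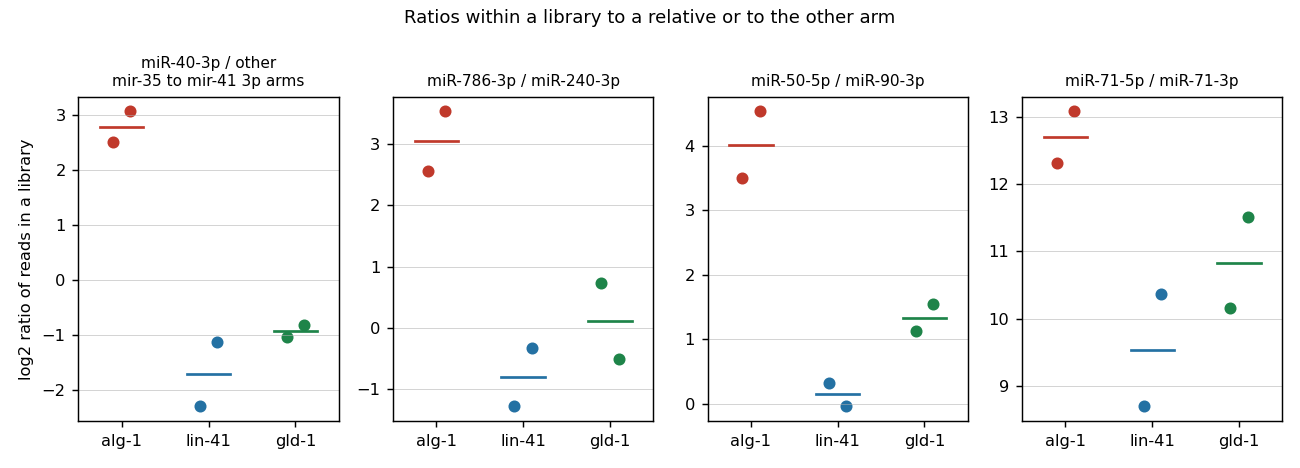
Points are the log2 ratio of reads (1 read added to each side) within 1 library for 4 pairs of miRNAs, with a line at the mean of the 2 libraries of the alg-1, lin-41 and gld-1 pulldowns. In each panel both alg-1 points lie above the 4 others, from a mean of 2.79 for miR-40-3p to its cluster relatives, to 12.7 for miR-71-5p to its other arm.

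let-7-5p and miR-84-5p were intermediate in the alg-1 libraries. let-7-5p had 33036 and 25171 reads with alg-1, against 886767 and 108234 with lin-41 and 5178 and 10099 with gld-1. It was lower with alg-1 than with lin-41 (log2 fold change -3.98 ± 0.71, edgeR adjusted p = 0.000125) and higher than with gld-1 (2.19 ± 0.66, edgeR adjusted p = 0.016). miR-84-5p had 3108 and 2717 reads with alg-1, against 663 and 455 with lin-41 and 67538 and 175840 with gld-1. It was higher with alg-1 than with lin-41 (2.03 ± 0.66, edgeR adjusted p = 0.0344) and lower than with gld-1 (-5.09 ± 0.75, edgeR adjusted p = 1.03e-05). The larger difference held for each. The smaller, let-7-5p against gld-1 and miR-84-5p against lin-41, lost its call with relative log expression (RLE) factors (edgeR adjusted p = 0.0946 and 0.164). Over all alternatives their adjusted p ranged from 6.85e-06 to 0.204 for let-7-5p and from 9.72e-05 to 0.579 for miR-84-5p. Leaving out alg-1 replicate 2 also ended both (edgeR adjusted p = 0.145 and 0.445), as did leaving out gld-1 replicate 1 for let-7-5p (0.173) and, for miR-84-5p, leaving out alg-1 replicate 1 (0.0532), lin-41 replicate 1 (0.579) or lin-41 replicate 2 (0.0534).

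Among the 10 most abundant miRNAs of the alg-1 pulldown, 3 passed against both transcripts in the same direction (miR-71-5p, miR-40-3p and miR-50-5p) and 2 passed against neither, with intervals that admit changes of more than 2-fold. miR-48-5p, a let-7 family member of developmental timing, had 7720 and 9455 normalised CPM with alg-1, against 11119 and 5012 with lin-41 and 5886 and 11810 with gld-1. Its log2 fold change was 0.09 against lin-41 (95% interval -1.13 to 1.31) and -0.04 against gld-1 (-1.26 to 1.18), with the groups overlapping. miR-80-3p, of the family related to fly bantam, ran at 35384 and 14490 normalised CPM with alg-1, against 39807 and 28676 with lin-41 and 17059 and 11359 with gld-1. Its intervals were -1.79 to 0.87 against lin-41 and -0.52 to 2.15 against gld-1. The last member of the let-7 family, miR-241-5p, had 9668 and 10981 normalised CPM with alg-1, against 6771 and 9029 with lin-41 and 2124 and 2321 with gld-1, and passed against gld-1 alone (2.22 ± 0.63, edgeR adjusted p = 0.0102).

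**Figure D5:**
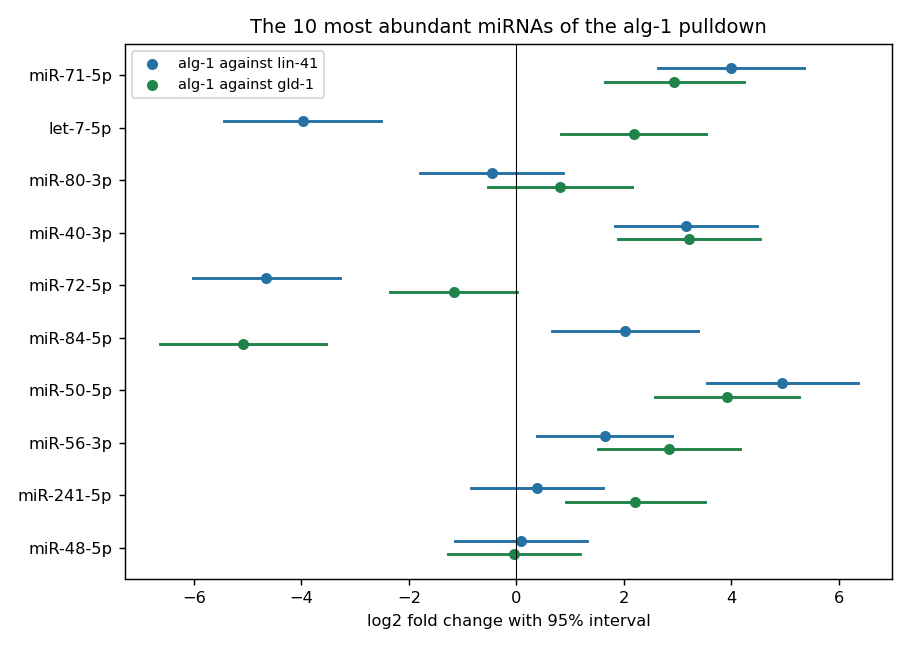
Points are log2 fold changes of alg-1 against lin-41 and against gld-1 for the 10 miRNAs with the highest mean share of alg-1 reads, and bars are 95% intervals of the edgeR fit. miR-71-5p, miR-40-3p and miR-50-5p lie right of 0 in both comparisons, let-7-5p and miR-84-5p on opposite sides, and miR-48-5p and miR-80-3p span 0 in both.

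Of the 10 miRNAs that passed against lin-41 alone, 9 were lower with alg-1. miR-72-5p had 12403 and 19808 normalised CPM with alg-1, against 439115 and 373222 with lin-41 and 38954 and 33419 with gld-1. It was lower with alg-1 than with lin-41 (log2 fold change -4.66 ± 0.67, edgeR adjusted p = 5.73e-06), and its fold change of -1.17 against gld-1 did not pass (edgeR adjusted p = 0.213). miR-784-5p had 0 reads in both alg-1 libraries, against 41 and 24 with lin-41 and 0 and 2 with gld-1, and was at least 25.4-fold lower with alg-1 than with lin-41, taking 3 reads over the 2 alg-1 libraries as the floor. By the same floor miR-49-5p, with 0 reads with alg-1 against 22 and 15 with lin-41, was at least 14.5-fold lower. miR-784-5p had 10 or more reads in the 2 lin-41 libraries only, and miR-49-5p in these and in gfp::lin-41 replicate 1 (29 reads). Both were thus tested only through libraries where they were high, and their calls are a description. miR-42-5p had 0 and 1 reads with alg-1, against 23 and 4 with lin-41, and miR-259-5p had 6 and 1, against 48 and 68. Some of these calls were lost with 1 library left out or with another scaling. miR-42-5p lost its call without alg-1 replicate 1 or lin-41 replicate 1. It also lost it with RLE factors (edgeR adjusted p = 0.0593), library totals (0.191) and totals without the 3 dominant miRNAs (0.137). miR-259-5p lost its call without alg-1 replicate 2 or lin-41 replicate 2 and with library totals (edgeR adjusted p = 0.0619), and miR-784-5p and miR-49-5p without alg-1 replicate 1. miR-75-5p was the only miRNA that was higher with alg-1 and passed against lin-41 alone. It reached 10 reads in the 2 alg-1 libraries only. It was thus tested only through the group where it was high, and its call is a description. It had 17 and 25 reads with alg-1, against 1 and 1 with lin-41 and 1 and 4 with gld-1 (log2 fold change 4.13 ± 1.40 against lin-41, edgeR adjusted p = 0.04, and 3.38 ± 1.23 against gld-1, edgeR adjusted p = 0.057). The call against lin-41 was lost without any 1 of the 6 libraries (log2 fold change between 2.84 and 4.71). It was also lost with RLE factors (edgeR adjusted p = 0.0593), upper-quartile factors (0.0896), no filter (0.0793) and summed precursor rows (0.0628). The replicate block (0.0587), the prefix as a factor (0.122) and DESeq2 (DESeq2 adjusted p = 0.0722) ended it as well. Library totals, the filter on the 6 libraries and the 6 libraries alone were among the settings that kept it.

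Of the 11 miRNAs that passed against gld-1 alone, 7 were lower with alg-1, among them abundant miRNAs of the gld-1 pulldown. miR-65-5p and miR-66-5p come from a cluster of related genes in an intron of gcn-1 on chromosome III. miR-65-5p had 2821 and 991 reads with alg-1, against 4016 and 935 with lin-41 and 36901 and 151228 with gld-1 (log2 fold change against gld-1 -5.48 ± 0.76, edgeR adjusted p = 4.28e-06). miR-66-5p had 1303 and 730 reads with alg-1, against 1902 and 716 with lin-41 and 28620 and 19046 with gld-1 (-4.41 ± 0.68, edgeR adjusted p = 1.54e-05). Against lin-41 neither passed, with 95% intervals of the log2 fold change from -1.84 to 0.74 for miR-65-5p and from -1.82 to 0.61 for miR-66-5p. miR-70-5p had 0 and 3 reads with alg-1, against 4 and 9 with lin-41 and 4612 and 4146 with gld-1, and it was also high in the 4 libraries of edited gld-1, made with gld-1 probes (5886 to 9347 normalised CPM), against 23.3 and 80.6 in the gld-1::gfp pulldowns made with gfp probes. miR-248 had 2 and 0 reads with alg-1, against 66 and 97 with gld-1. miR-42-3p, of the miR-35 family, had 25 and 9 reads with alg-1, against 112 and 233 with gld-1 (-3.20 ± 0.90, edgeR adjusted p = 0.0102), and its call was lost without alg-1 replicate 2 or gld-1 replicate 2. It was also lost with library totals (log2 fold change -2.38, edgeR adjusted p = 0.155) and with totals without the 3 dominant miRNAs (-1.50, edgeR adjusted p = 0.176).

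The 4 miRNAs that were higher with alg-1 and passed against gld-1 alone were miR-51-3p, miR-56-3p, miR-253-3p and miR-241-5p. miR-51-3p had 6646 and 9036 normalised CPM with alg-1, against 2748 and 3695 with lin-41 and 195 and 158 with gld-1 (log2 fold change 5.47 ± 0.75 against gld-1, edgeR adjusted p = 4.28e-06). Its excess over lin-41 did not pass (1.28 ± 0.63, edgeR adjusted p = 0.2), and gfp::lin-41 replicate 1 stood at 1142 and the 3 controls between 49.8 and 136. miR-56-3p had 2742 and 1969 reads with alg-1, against 1148 and 289 with lin-41 and 391 and 371 with gld-1. Both alg-1 libraries lay above the lin-41 libraries, but the fold change of 1.64 ± 0.61 missed the threshold (edgeR adjusted p = 0.0673). It passed with some other processing choices, among them DESeq2 (adjusted p = 0.0455), within a range of 0.00076 to 0.472 over all alternatives. miR-253-3p had 484 and 356 reads with alg-1, against 178 and 36 with lin-41 and 54 and 70 with gld-1 (1.96 ± 0.72 against lin-41, edgeR adjusted p = 0.0671, and 2.99 ± 0.75 against gld-1, edgeR adjusted p = 0.00418). The call of miR-253-3p against gld-1 was lost without alg-1 replicate 2. That of miR-241-5p was lost without alg-1 replicate 2, gld-1 replicate 1 or gld-1 replicate 2. It was also lost with RLE factors (edgeR adjusted p = 0.0602) and with summed precursor rows (0.0543). miR-253-3p was far higher in the changed specificity pulldowns (29003 and 8627 normalised CPM) than with alg-1 (1756 and 2191).

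Calls within the listed miRNA families were counted beside those over all miRNAs. In the let-7 family 3 of 4 members passed in at least 1 comparison, as given above, whereas 82 of all 112 miRNAs passed in neither. Among these 3 are let-7-5p and miR-84-5p, the miRNAs that lead the lin-41 and gld-1 pulldowns. Of 8 listed 3p arms of the miR-35 family 6 were tested, and miR-40-3p alone was higher with alg-1, against either transcript, while miR-42-3p was lower against gld-1. miR-37-3p had 314 and 191 reads with alg-1, against 196 and 104 with lin-41 and 627 and 654 with gld-1, and the median log2 fold change of the 6 was 0.37 against lin-41 and -0.35 against gld-1, beside 0.24 and 0.01 for all miRNAs. No member was called in either comparison among the 2 of the lin-4 family, the 4 of the miR-58 family, the 3 of the miR-44 family or the 3 of the miR-2 family. miR-44-3p and miR-45-3p had equal counts in every library, so they are not separate measurements in the family or among the 112. In the miR-64 family, miR-65-5p and miR-66-5p were the 2 of 5 that differed, both lower with alg-1 against gld-1. Of all 112 miRNAs, 9 (8.04%) were lower in that comparison. For the miR-51 family the list held 5p arms, of which 4 were tested and none passed, but at mir-54, mir-55 and mir-56 the abundant arm is 3p. Of these 3 arms miR-56-3p passed against gld-1, as given above, and miR-54-3p and miR-55-3p passed in neither comparison (log2 fold changes 0.45 and 0.52 against lin-41, and 0.45 and 0.81 against gld-1). At mir-51 the 3p arm was the abundant one with alg-1 (1832 and 1468 reads, against 121 and 69 of miR-51-5p). It was so with lin-41 as well (744 and 379, against 99 and 15), but not in both gld-1 libraries (45 and 42, against 41 and 102). miR-51-3p passed against gld-1, as given above. These 3p arms were added after their values were seen.

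Markers of single tissues were scarce in all 6 libraries. The muscle miRNA miR-1-3p had 5 and 3 reads with alg-1, against 2 and 1 with lin-41 and 5 and 3 with gld-1. The neuronal miR-124-3p had 145 and 6 reads with alg-1, against 20 and 2 with lin-41 and 2 and 3 with gld-1, so that the alg-1 libraries differed widely from each other, and it passed in neither comparison (edgeR adjusted p = 0.495 and 0.213). lsy-6-3p, of a single taste neuron, had 0 reads. The intestinal miR-60-3p had 101 and 22 reads with alg-1, against 17 and 7 with lin-41 and 38 and 22 with gld-1, and the glial miR-228-5p had 79 and 58, against 61 and 21 and against 75 and 66, and neither passed. The germline and embryo list is the miR-35 family above. It held 3.59% to 3.77% of the alg-1 reads, against 0.265% to 0.639% with lin-41 and 0.528% to 0.879% with gld-1. In the no-target control libraries it held 2.295% to 10.08%, a range that includes the alg-1 shares. These are unscaled shares of all reads, and most of the alg-1 share was miR-40-3p. The part of tissue content in the results was not tested.

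The library names carry a prefix (PD1, PD2 or PD3) whose meaning the labels do not give, and no prefix holds all 3 pulldowns. PD2 holds 1 alg-1 and 1 lin-41 library, and PD1 holds 1 alg-1 and 1 gld-1 library. Within these pairs, which allow no test, the 6 miRNAs were higher with alg-1 by 3.35 (miR-40-3p) to 7.24 (miR-1829c-5p) on the log2 scale against lin-41, and by 2.96 (miR-71-5p) to 8.53 (miR-1829c-5p) against gld-1. miR-246-3p was lower by 5.96 and 3.22, given as the size of the log2 difference against lin-41 and against gld-1. With the prefix as a term in the fit, all 6 and miR-246-3p remained called against both transcripts, and miR-253-3p, miR-51-3p and miR-56-3p joined the higher and miR-70-5p the lower ones.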

How the data were processed

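Small RNA from pulldown elutions was polyadenylated for library preparation (SMARTer smRNA-Seq). The authors demultiplexed reads with bcl2fastq, trimmed them with cutadapt 1.14, filtered out Escherichia coli reads with Bowtie2 2.3.3.1, and counted miRNAs with miRDeep2. The deposited values are read counts per mature miRNA and precursor, 452 rows per library for 434 miRNAs, not normalised. A miRNA with several rows (15 miRNAs) was counted by its largest row.

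miRNAs with 10 or more reads in at least 2 of the 16 libraries were kept (112 miRNAs, at least 99.78% of each library's reads). One edgeR 4.0.16 model (R 4.3.3; TMM factors, robust glmQLFit, glmQLFTest) with 1 coefficient per group used all 16 libraries, so the groups shared their spread (biological coefficient of variation 0.532). p-values were adjusted by Benjamini-Hochberg within a comparison over all 112, with a threshold of 0.05. The SE was taken as the absolute log2 fold change over the root of the F statistic. Ratios within a library used a pseudocount of 1. An exact two-sided permutation test was run on each of the 5 ratios and gave p = 0.0667 for each, the smallest possible. As members of the ratios were picked from these same libraries, these p-values are no support. Scripts were tested on simulated data.

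Named miRNAs were those passing both comparisons in 1 direction, their other arms, the 3 dominant miRNAs, the 10 most abundant with alg-1, and up to 5 per direction passing in 1 comparison only. The comparison, lists and rule were chosen with earlier results of these data known. The ratios to relatives, a neighbour or the other arm, the tally of libraries above all others and the comparisons with the control were added later. So was the alternative without the control libraries. Gene positions come from the Ensembl annotation of WBcel235, matched by name; let-7 was not matched. miRNA and UTR sequences were not used here, so seed matches were not counted.

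Alternatives were other scalings (RLE, upper quartile, library totals, totals without the 3 dominant miRNAs), other filters, DESeq2 1.42.0, summed rows, the 6 libraries alone, a replicate block, the prefix as a factor, and each library left out.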

Additional observations from a re-analysis of the deposited data

Results flagged for a closer look

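In pulldowns that entered no comparison, some of the 7 miRNAs lay above all 3 control libraries. miR-71-5p averaged 21870 normalised CPM in gld-1::gfp, 28770 in gfp::lin-41 (1 library), 39980 in seed destruction and 33570 in changed specificity, against 3742 to 8152 in the controls. miR-246-3p averaged 1189 in gld-1::gfp, 2933 in gfp::lin-41, 979.6 in seed destruction and 878.1 in changed specificity, against 105.9 to 498.2 in the controls. In gfp::lin-41, miR-50-5p stood at 1248, against 318.3 to 830.3 in the controls, and miR-1829c-5p at 90.4, against 14.7 to 40.5. These differences were not tested, and gfp::lin-41 has 1 library.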

How the results depend on the processing

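All 6 miRNAs higher with alg-1 against both transcripts kept that call under the 13 alternatives that leave out no replicate, which found between 6 and 22 such miRNAs. Among the named miRNAs no called result changed direction under any alternative. Called miRNAs outside the named ones, such as miR-1817 and miR-4932, were not followed individually. Library totals gave 40 higher and 6 lower against lin-41, 32 and 3 against the mean of lin-41 and gld-1, and 12 higher against both. Totals without the 3 dominant miRNAs gave 37 higher against lin-41, 28 higher and 5 lower against gld-1, 43 and 2 against the mean, and 22 higher and 0 lower against both. The 6 libraries alone gave 15 lower against the mean, and 10 higher and 3 lower against both. The prefix as a factor gave 14 lower against the mean and 2 lower against both, and with the 6 libraries alone 14 higher and 17 lower against lin-41, 15 lower against gld-1, 16 and 23 against the mean, and 10 and 2 against both. Without the control libraries, chosen after seeing the data, 2 were lower against both. The cause of these shifts was not tested. Leaving out each library in turn gave 5 to 7 higher and 5 to 12 lower against lin-41, 7 to 11 and 6 to 9 against gld-1, 7 to 10 and 4 to 10 against the mean, and 5 to 6 and 1 to 2 against both, with a lone library assumed to vary like the other groups. The lowest counts came without alg-1 replicate 1 (5 lower against lin-41), lin-41 replicate 1 (5 higher against lin-41) and alg-1 replicate 2 (7 higher against gld-1, 4 lower against the mean). The log2 ratio of miR-71-5p to let-7-5p and miR-84-5p differed by 5.22 to 6.69.

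With the replicate block, 7 miRNAs were higher and 1 lower against both, and 8 higher and 12 lower against lin-41; miR-253-3p gained and miR-75-5p lost its call against lin-41. Deviations of same-numbered libraries correlated by 0.299 (alg-1 and lin-41) and 0.209 (alg-1 and gld-1) over only 2 numbers, which is too few to take the numbers as pairs. alg-1 and lin-41 replicate 1 also share the prefix PD2, and alg-1 and gld-1 replicate 2 the prefix PD1. The exact permutation p of the miR-71-5p ratio, whose order the choice of members fixed, was 0.0667 (15 splits, the smallest possible) and 0.111 in the replicate block (9 splits, the smallest possible). With 2 libraries a group, half-widths of the 95% intervals had a median of 1.88 against lin-41 on the log2 scale.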
